A study of Mus musculus with 8 samples.

Results

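The genes Hp, Saa3, Lcn2, Slpi, S100a8 and S100a9 encode acute-phase proteins and secreted proteins of leukocyte granules, and are described here in mouse macrophages. They were listed by symbol and chosen by their levels in these libraries, Hp and Saa3 for rises in ABCG1KO that are among the largest measured, and they are 6 of the 24421 gene symbols counted. Of the 6, 5 were among the 13821 genes that passed the filter on low counts, and S100a9 was not. The study sequenced RNA from primary macrophages of mice on a normal diet in 3 genotypes: wild type (WT, 3 libraries), LysM-DKO (3 libraries) and ABCG1KO (2 libraries). The series' design text names the double knockout as one of the epsins, adaptor proteins of clathrin-mediated endocytosis, and ABCG1KO as a knockout of Abcg1, which encodes an exporter of cholesterol. LysM is the common name of the lysozyme gene whose promoter is used to drive Cre recombinase in myeloid cells. The tissue the macrophages came from, the alleles, and the age of the mice were not given in the sources used here, nor whether libraries of a group came from separate mice. The p-values therefore measure only the spread between these libraries, which may be technical.

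Haptoglobin, the product of Hp, is a plasma protein that binds free haemoglobin, and the complex is taken up by macrophages through the receptor CD163. Serum amyloid A3, from Saa3, is the member of its family that macrophages and epithelial or fat cells make outside the liver. Both are classed as acute-phase proteins, whose genes are induced during inflammation through NF-kB, STAT3 and the C/EBP factors. Secretory leukocyte protease inhibitor (Slpi) blocks neutrophil elastase and related serine proteases, and lipocalin 2 (Lcn2) binds bacterial siderophores and so withholds iron. S100a8 and S100a9 encode the subunits of calprotectin, a calcium- and zinc-binding heterodimer that is abundant in neutrophils and monocytes and signals through Tlr4 and Ager.

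The stretches of 250 bases before the RefSeq transcription start are shown for Saa3 and Slpi, which had high levels in the ABCG1KO libraries, and for S100a9, which was at or near 0 in every library. Capitals mark each match to TTNNGNAA, a short form of the C/EBP site, on either strand. The windows are from RefSeq on GRCm38.p6 and are written 5′ to 3′ along the strand of the gene, which is the minus strand for all 3.
Saa3, chr7:46715677-46715926: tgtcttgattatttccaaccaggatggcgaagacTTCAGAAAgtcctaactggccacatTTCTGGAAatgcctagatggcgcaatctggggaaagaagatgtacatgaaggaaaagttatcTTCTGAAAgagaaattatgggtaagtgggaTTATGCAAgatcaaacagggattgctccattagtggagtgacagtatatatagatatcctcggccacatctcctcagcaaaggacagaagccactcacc
Slpi, chr2:164356508-164356757: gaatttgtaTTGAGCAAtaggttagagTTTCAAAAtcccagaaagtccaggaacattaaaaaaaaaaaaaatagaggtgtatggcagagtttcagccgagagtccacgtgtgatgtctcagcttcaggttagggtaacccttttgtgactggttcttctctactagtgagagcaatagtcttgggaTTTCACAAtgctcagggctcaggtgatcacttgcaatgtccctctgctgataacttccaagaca
S100a9, chr3:90695722-90695971: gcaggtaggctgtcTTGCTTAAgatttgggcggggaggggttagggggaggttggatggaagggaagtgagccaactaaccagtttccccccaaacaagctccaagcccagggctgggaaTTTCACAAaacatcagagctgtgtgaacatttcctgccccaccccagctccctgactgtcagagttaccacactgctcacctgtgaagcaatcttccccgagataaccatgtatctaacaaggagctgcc
The Saa3 window held 4 matches, the Slpi window 3 and the S100a9 window 2, while those of Lcn2 and S100a8 held 1 each. Of 32851 RefSeq windows of the same length, 36.8% held at least 1 match and 2.61% held 3 or more. GGGNNNNNCC, a short form of the NF-kB site that 45.8% of windows held, was matched once, before Lcn2, and TTCNNNGAA, a short form of the STAT site held by 7.02% of windows, was matched before none of the 5 genes. RefSeq windows were matched for 5 of the 6 genes. None was found for Hp among the windows used here, so the bases before its start were not examined. On the GENCODE annotation the Saa3 window overlaps the gene's own 5′ end and the Slpi window lies inside the gene's span. The matches describe the letters only, and none of the libraries measured binding.

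The genotype labels were checked first, with levels as counts scaled to library size (CPM) with trimmed mean of M-values (TMM) factors. Abcg1 was at 384 ± 34.6 CPM in WT (SD, n = 3) and 66.9 ± 9.16 CPM in ABCG1KO (n = 2), lower by 2.52 on the log2 scale (SE 0.37, edgeR adjusted p = 0.00414). Epn1 was at 208 ± 19.6 CPM in WT and 169 ± 14.1 CPM in LysM-DKO (n = 3 each, edgeR adjusted p = 0.43), and Epn2 was at 7.34 and 8.4 CPM. The log2 fold change of Epn1 was -0.30 (SE 0.13), with no overlap (191 to 230 CPM in WT, 154 to 183 CPM in LysM-DKO). The same lack of overlap held for 21.0% of all genes tested. The counts therefore do not show the loss of either epsin transcript in the libraries labelled LysM-DKO, though counts per gene cannot show the loss of part of a transcript. Total counts in genes ran from 29567615 to 41888516 per library. The ABCG1KO libraries had 13.8% and 10.2% of reads outside annotated genes, against 4.26% to 6.07% in the other 6 libraries. Sex-linked transcripts followed the groups: Xist was at 0 in both ABCG1KO libraries and Ddx3y was at 94.7 and 92.5 CPM, while all WT libraries had Xist and at most 2 counts of Ddx3y. The sex of the cells and the genotype cannot be told apart when ABCG1KO is set against WT, and 1 LysM-DKO library, replicate 1, also had Ddx3y, at 81.6 CPM. LysM-DKO replicates 2 and 3 had Xist instead, at 265 and 254 CPM, so replicate 1 was not a repeat of the same sample. In bulk RNA, fewer cells of a type and less RNA per cell cannot be told apart.

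Hp, whose single gene lies at chr8:109575128-109579172 (GRCm38), was nearly silent in WT and LysM-DKO and was expressed in ABCG1KO. The WT libraries had 2.67, 1.9 and 1.04 CPM, from 91, 69 and 40 counts. The LysM-DKO libraries had 1.33, 2.36 and 4.3 CPM, and the ABCG1KO libraries had 867 and 175 CPM, from 27638 and 7414 counts. WT and LysM-DKO overlapped, while both ABCG1KO libraries lay above every other library, and the first was 4.96 times as high as the other. In ABCG1KO, Hp was the gene with the 102nd highest count in library 1 and the 895th in library 2.

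Saa3 (chr7:46711998-46715700) had the highest mean level per transcript length of the 6 genes in every group, and also a wide spread within WT and LysM-DKO. The WT libraries had 64.7, 124 and 6.44 CPM, a 19.2-fold range, with the third library low. The LysM-DKO libraries had 2.59, 43.5 and 45.1 CPM, a 17.4-fold range, with the first library low. The ABCG1KO libraries had 9950 and 2970 CPM, from 317402 and 125962 counts, and neither came near any WT value. Saa3 was the 7th and the 17th most counted gene of those 2 libraries, and its transcript shares 4.15% of its 50-base stretches with other genes. The other genes of the family were close to absent: Saa1, a gene of the hepatic acute-phase response, had at most 10 counts in any library, and Saa2 and Saa4 had 0 in all 8.

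Slpi (chr2:164354070-164389095, in whose span the annotation also places Mir7678) had a pattern across libraries much like that of Saa3. WT libraries had 8, 7.37 and 1.37 CPM, LysM-DKO libraries 0.654, 4.31 and 10.8 CPM, and ABCG1KO libraries 741 and 123 CPM. The lowest WT and the lowest LysM-DKO library for Saa3 were also the lowest for Slpi. ABCG1KO library 1 was 6.02 times as high as library 2, and both lay above the 6 other libraries.

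Lcn2 (chr2:32384633-32388252) was low in all groups, with 2 to 82 counts per library. It had 45, 50 and 2 counts in WT (1.32, 1.38 and 0.0518 CPM), 82, 33 and 5 in LysM-DKO (1.99, 0.804 and 0.125 CPM), and 73 and 34 in ABCG1KO (2.29 and 0.802 CPM). The groups overlapped, and the spread within WT was 26.7-fold.

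Of the calprotectin genes, S100a8 (chr3:90668978-90670035) was low in all libraries and S100a9 (chr3:90692632-90695721) was close to absent. S100a8 levels were 3.31, 2.32 and 3.42 CPM in the WT libraries, 0.799, 1.02 and 2.9 CPM in the LysM-DKO libraries and 5.55 and 2 CPM in the ABCG1KO libraries. S100a9 had 0 counts in all 6 WT and LysM-DKO libraries, which allows up to 0.0879 CPM in WT and 0.075 CPM in LysM-DKO, for counting error only. The ABCG1KO libraries had 5 and 6 counts of S100a9 (0.157 and 0.141 CPM). The subunits of the heterodimer were thus unequal in these counts: S100a8 had 33 to 177 counts in every library where S100a9 had 6 or fewer.

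**Figure D1:**
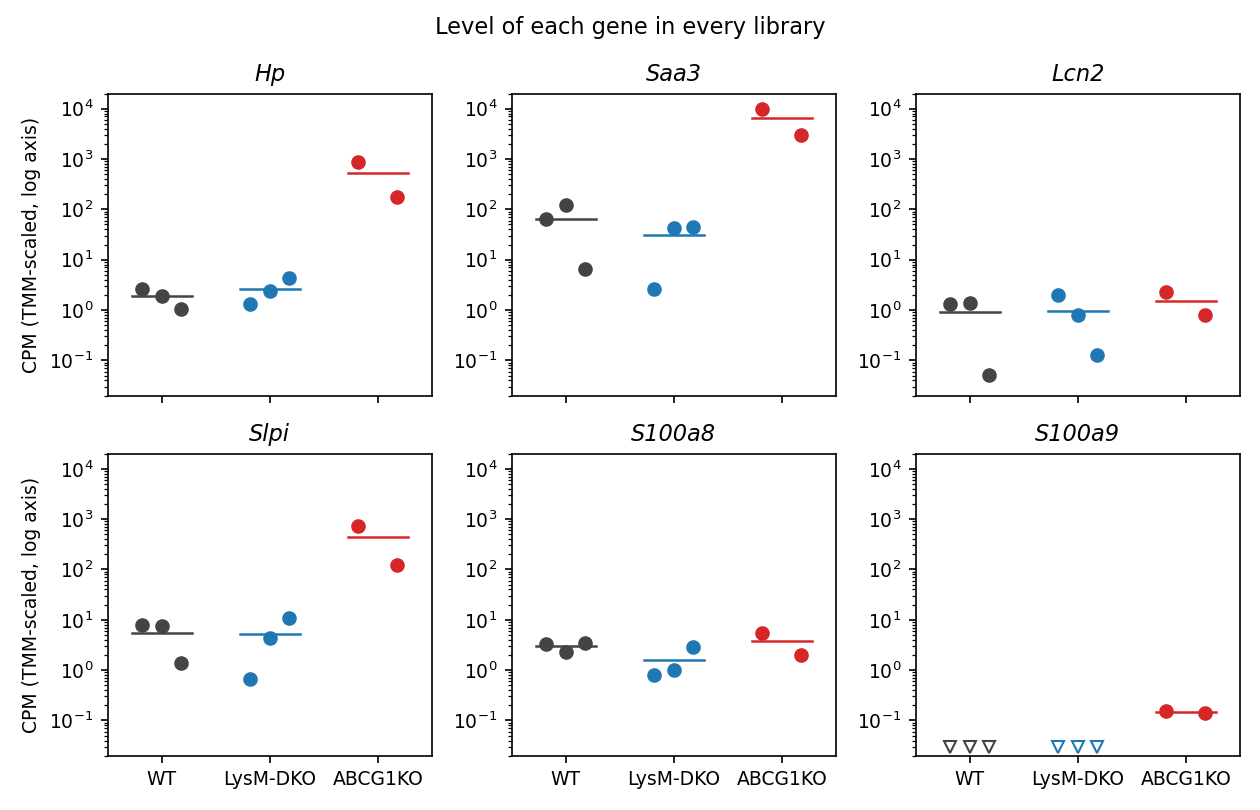
Level of the 6 genes in each of the 8 libraries, in TMM-scaled CPM on a log axis, with bars at the group mean and triangles at the bottom edge for 0 counts. Hp, Saa3 and Slpi are separated from WT and LysM-DKO in the ABCG1KO libraries, with Saa3 at 9950 and 2970 CPM, while Lcn2 and S100a8 overlap between the groups.

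Per kilobase of principal transcript, the order of the levels in WT was Saa3 (mean 117 CPM per kb, range 11.6 to 223), Slpi (6.37, 1.56 to 9.13), S100a8 (6.21, 4.77 to 7.04), Hp (1.39, 0.773 to 1.99), Lcn2 (1.0, 0.0566 to 1.51) and S100a9 (0). In this order Saa3 did not overlap Slpi, Slpi overlapped S100a8, S100a8 did not overlap Hp, and Hp overlapped Lcn2. In LysM-DKO the order was the same, with means of 54.8, 5.99, 3.24, 1.98, 1.06 and 0 CPM per kb, and each gene above 0 overlapped the next in the order. In ABCG1KO, Hp moved ahead of S100a8: the means were 11600 CPM per kb for Saa3, 493 for Slpi, 388 for Hp, 7.76 for S100a8, 1.69 for Lcn2 and 0.285 for S100a9. There Slpi (140 to 846) and Hp (130 to 645) overlapped, while Hp and S100a8 (4.12 to 11.4) did not.

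The comparison of LysM-DKO with WT was not used to choose the genes and was tested. None of the 5 genes tested passed an adjusted p of 0.05 in edgeR's quasi-likelihood test, none had an unadjusted p under 0.05, and DESeq2 called none. Among all genes tested, 5 of 13821 were called (0.0362%), so a count of 0 is close to the background. All 5 genes overlapped between the groups, while 21.0% of all genes tested did not. The median log2 fold change of the 5 was -0.08, beside 0.02 over all genes.

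Intervals were wide in this comparison. Hp had a log2 fold change of 0.52 (SE 0.69, 95% interval -1.08 to 2.12, edgeR adjusted p = 0.787). Saa3 had -1.09 (SE 1.17, -3.81 to 1.62, edgeR adjusted p = 0.724). These intervals leave room for differences of several fold in either direction, so the test did not show the groups to be alike. Slpi had -0.08 (SE 1.04, -2.49 to 2.33, edgeR adjusted p = 0.984). Lcn2 had 0.09 (SE 1.16, -2.57 to 2.74, edgeR adjusted p = 0.985), and S100a8 had -0.94 (SE 0.60, -2.31 to 0.43, edgeR adjusted p = 0.556). Single libraries set some of the signs: without LysM-DKO library 3, Hp was at -0.01, without LysM-DKO library 1, Lcn2 was at -0.99, and without WT library 3 Lcn2 was at -0.47. Slpi turned above 0 in 4 of the 8 fits without a library, reaching 0.27 with WT library 1 omitted, 0.14 with WT 2, 0.42 with LysM-DKO 1 and 0.03 with LysM-DKO 2. Saa3 was at -0.27 with WT 2 omitted.

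In ABCG1KO against WT, the contrast by which Hp and Saa3 were chosen, the values are a description with no test. Hp was 279-fold higher (log2 fold change 8.13, SE 0.87), Saa3 99.6-fold (6.64, SE 1.5) and Slpi 77.6-fold (6.28, SE 1.28). They stood at ranks 20, 40 and 50 of 13821 genes by log2 fold change, and their ABCG1KO libraries did not overlap WT, as held in this direction for 23.9% of all genes tested. Lcn2 (0.75, SE 1.28) and S100a8 (0.32, SE 0.66) overlapped WT and ranked 2263 and 4397. Nothing can be read from the shares, since the list was built on this contrast.

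Each rise differed in size between the pair of ABCG1KO libraries. Without the first, the log2 fold changes were 6.54 for Hp, 5.51 for Saa3 and 4.46 for Slpi. Without the second they were 8.85, 7.25 and 7.05. The direction held in both cases, while Lcn2 went from -0.20 to 1.31 and S100a8 from -0.60 to 0.87. ABCG1KO library 1 exceeded library 2 by 2.77-fold to 6.02-fold for the 5 genes fitted. Over 8511 genes with a mean of at least 10 CPM, the median ratio was 1.04 and the 95th percentile 1.77. Lcn2 and S100a8 were below 10 CPM in every library, so that set is unlike them. The ratio was larger still for Alox15 (6.55), Prg4 (8.23) and Adgre4 (6.36), which were also higher in ABCG1KO than in WT.

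**Figure D2:**
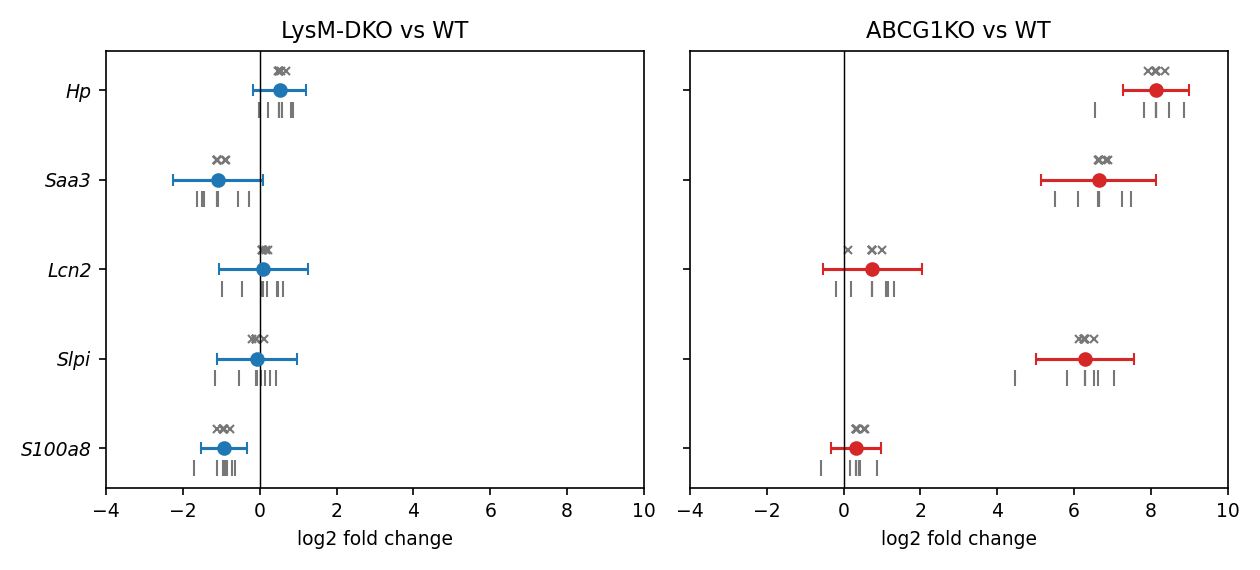
Log2 fold change of the 5 genes fitted, for LysM-DKO against WT and for ABCG1KO against WT, with bars of 1 SE, ticks for fits with 1 library left out and crosses for the other alternative fits. The LysM-DKO values lie within about 1 to 2 SE of 0, and the ABCG1KO values of Hp, Saa3 and Slpi stay above 4 in every fit shown.

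Levels of Hp, Saa3 and Slpi moved together across libraries, described here with no p-value. Over the 8 libraries the Pearson correlations of log2 CPM were 0.93 for Hp with Saa3, 0.96 for Hp with Slpi and 0.98 for Saa3 with Slpi. The high ABCG1KO values carry much of this, and over the 6 WT and LysM-DKO libraries alone the correlations were 0.67, 0.84 and 0.94. Lcn2 followed none of the 3 closely, at 0.32 to 0.37 over 8 libraries, and its correlation with S100a8 was -0.2. All points share library depth and composition.

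The genes most like each of the 5 genes fitted were ranked by Pearson correlation of log2 CPM over the 8 libraries, among genes of at least 10 CPM. For Saa3 they were Krt80 (r = 0.996), Mcemp1 (0.99) and Slpi itself (0.984). For Slpi they were Mcemp1 (0.994), Prg4 (0.991) and Saa3 (0.984), and for Hp they were Sod2 (0.994), Vasp (0.989) and Fam43a (0.989). Mcemp1 is on the wider list of neutrophil markers described below. It was called higher in ABCG1KO than in WT (5.91, SE 1.31, edgeR adjusted p = 0.0229). Prg4, which encodes lubricin, rose from 0.414 to 2.26 CPM in WT to 500 and 60.7 CPM in ABCG1KO, and Sod2, the mitochondrial superoxide dismutase, from 61.9 to 72.9 CPM to 327 and 191 CPM. Lcn2 was closest to Il1a (0.933), Gas7 (0.928) and Fam20b (0.903), and S100a8 to Coro1a (0.985), Msrb1 (0.967) and Gas5 (0.946).

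Genes that act with the 6 were tested in ABCG1KO against WT, where 7.21% of all genes were called higher and 8.83% lower, with a median log2 fold change of 0.01. With library size only and no TMM factors that median was 0.25, and 2074 genes were higher and 856 lower, against 996 and 1220. Of the 26 regulators of the acute-phase response tested, 11 rose and 0 fell in edgeR (0 lower at an unadjusted p under 0.05, and 0 in DESeq2), with a median of 1.19. They included the NF-kB subunits Nfkb2 (1.12, SE 0.12, edgeR adjusted p = 0.000921) and Relb (1.57, SE 0.18, 0.00103) and the NF-kB inhibitor Nfkbia (2.02, SE 0.32, 0.0063). Nfkb2 shares 14.9% of its 50-base stretches with other genes. The count was 4 without ABCG1KO library 1 and 7 without each WT library.

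Of the 17 receptors and targets of the 6 proteins tested, 5 rose and 3 fell, with a median of 1.05. The falls were Tlr4 (-1.19, SE 0.31, edgeR adjusted p = 0.0349), Ctss (-1.06, SE 0.22, 0.017) and Scarb1 (-0.89, SE 0.18, 0.0151). Among the rises was Cd163, the receptor for the haptoglobin complex (3.74, SE 0.94, edgeR adjusted p = 0.0357). Tlr2, a receptor for serum amyloid A, was at 27.0 to 31.8 CPM in WT and at 534 and 271 CPM in ABCG1KO (3.74, SE 0.36, edgeR adjusted p = 0.000487). The formyl peptide receptors Fpr2 (6.64) and Fpr1 (7.79, SE 1.46, edgeR adjusted p = 0.0132) rose from under 1 CPM on average in WT, though 31.5% of the Fpr2 sequence is shared with other genes. The count of rises was 1 without ABCG1KO library 1, 1 without WT library 1 and 3 without WT library 3. The count of falls was 0 without ABCG1KO library 1 and 2 without WT library 1, WT library 2 or ABCG1KO library 2.

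Of 25 other acute-phase proteins in the files, 9 had 0 counts in every library, and of the 13 tested 0 rose and 1 fell in edgeR, with a median of 0.10. At an unadjusted p under 0.05, and likewise in DESeq2, 1 was higher and 3 were lower. Lrg1, a leucine-rich glycoprotein of plasma, picked out after its values were seen, was at 0.586, 2.71 and 0.104 CPM in WT and 53.5 and 9.79 CPM in ABCG1KO, with no overlap (4.8, SE 1.46, edgeR adjusted p = 0.0633). The gene that fell was Serpina3n, a serine protease inhibitor of the acute phase (-2.06, SE 0.59, edgeR adjusted p = 0.0487), at 1.33 to 2.34 CPM in WT and 0.125 and 0.707 CPM in ABCG1KO. Of the families of the 6 genes, the S100 family had 0 of 8 tested rise in edgeR (0 also at an unadjusted p under 0.05 and in DESeq2) and 2 fall, S100a11 (-3.59, SE 0.34, with 41.1% of its sequence shared and so uncertain) and S100a1 (-1.88, SE 0.23, edgeR adjusted p = 0.00152), with a median of -0.35. Of the 2 other WFDC genes and the 3 other lipocalin genes tested, edgeR called 0, with medians of 1.77 and -0.56. At an unadjusted p under 0.05, and in DESeq2, 1 WFDC gene was higher and 0 lipocalin genes changed.

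**Figure D3:**
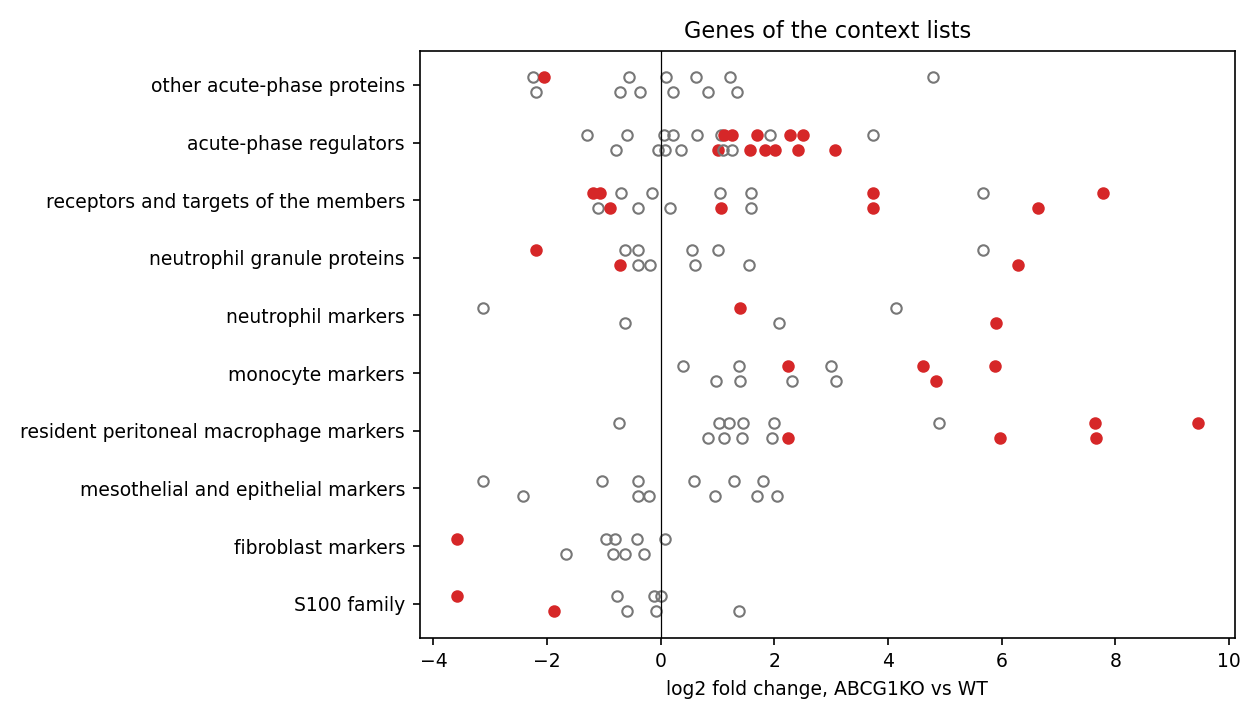
Log2 fold change in ABCG1KO against WT of each gene tested in 10 lists, filled where the adjusted p was under 0.05; genes with at most 3 counts in every library of a group are left out. Filled points of the regulators lie above 0, and those of the other acute-phase proteins and the S100 family below 0.

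Markers of other cell types were measured beside these results. Of the defining neutrophil markers, Retnlg was at 0 in all 8 libraries, Mpo had at most 10 counts, Elane 4, Camp 5, Ngp 2, Ltf 27 and Cxcr2 66, and Ly6g was not analysed here. Their sum was 0.663 to 2.37 CPM in WT, 0.366 to 1.75 in LysM-DKO and 0.533 and 0.99 in ABCG1KO. The sum in the ABCG1KO libraries lay below the highest WT value, and Cxcr2 and Ltf made up most of the WT sum. Mpo, the myeloperoxidase of primary granules, had 0 counts in every WT library and 1 and 10 counts in ABCG1KO, while Elane had at most 1 count in WT and 4 and 1 in ABCG1KO. Prtn3, from the list of neutrophil granule genes, reached more, at 0.129 to 0.801 CPM in WT and 0.896 to 38 CPM in ABCG1KO. It was not called (5.67, SE 1.77, edgeR adjusted p = 0.0684). Of the 9 genes tested from the wider list of neutrophil markers, 4 rose and 1 fell, with a median of 2.08, and the sum of the whole list went from 114 to 139 CPM in WT to 919 and 315 CPM in ABCG1KO. Csf3r, the receptor for granulocyte colony-stimulating factor, rose by 1.40 (SE 0.27, edgeR adjusted p = 0.0131), Cd177 was at 18.7 and 3.07 CPM against at most 0.0293 CPM in WT, and Cxcr1 had 0 counts in ABCG1KO. Csf3r made up most of the sum in WT, at 84.3 to 130 CPM. In ABCG1KO most of the sum was Csf3r, at 204 to 348 CPM, and Padi4, at 81 to 418 CPM. Padi4 was not called (edgeR adjusted p = 0.0824). The number of rises was 1 without ABCG1KO library 1 and 2 without each WT library. Of the 14 neutrophil granule genes tested, 2 rose and 2 fell, with a median of 0.58. Cd63, a membrane protein of granules and lysosomes, fell (-2.19, SE 0.32, edgeR adjusted p = 0.00381). The rises were Cd177 and Pglyrp1, a peptidoglycan-binding granule protein named here after its values were seen. Pglyrp1 was at most at 0.221 CPM in WT and at 17.7 and 4.01 CPM in ABCG1KO. Both genes were below the filter's limit of 0.257 CPM in every WT and LysM-DKO library. They were tested only because the ABCG1KO libraries passed that limit, so they could be called only as rises. Cd177 is also among the 4 rises of the wider list.

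Of the monocyte markers, 5 of the 12 tested rose and 0 fell in edgeR (0 lower at an unadjusted p under 0.05 or in DESeq2), with a median of 2.65, among them Ccr2, the chemokine receptor of recruited monocytes (4.61, SE 0.66, edgeR adjusted p = 0.00446), and Fn1, fibronectin (2.25, SE 0.37, 0.0068). Their sum was 922 to 1640 CPM in WT and 7930 and 3920 CPM in ABCG1KO, higher in library 1 as for Hp, Saa3 and Slpi. Most of that sum was Fn1, at 861 to 1550 CPM in WT and 3520 to 7070 CPM in ABCG1KO. Fn1 is also in the list of resident peritoneal macrophage markers, so its rise counts in both lists. Ly6c2 and Gm9733, of the monocyte list, were at means of 0.101 and 0 CPM in WT and 0.00833 and 0.0167 CPM in LysM-DKO. They passed the filter only through the ABCG1KO libraries, so they could be called only as rises. Ly6c2 was among the 5 rises of the monocyte list. Of 15 markers of resident peritoneal macrophages, 5 rose and 0 fell in edgeR (0 lower at an unadjusted p under 0.05 or in DESeq2), with a median of 1.96, Adgre4 (7.66, SE 1.00, edgeR adjusted p = 0.00308) and Prg4 (7.64, SE 1.26, 0.00812) among them. Of 15 macrophage markers, 5 rose and 1 fell (median 0.37), with C1qa, Adgre1 and Csf1r among the rises. Cd68 was lower, at 917 to 1370 CPM in ABCG1KO and 2120 to 2660 CPM in WT. The counts of rises without ABCG1KO library 1 were 2 for monocyte and 3 for peritoneal markers, and the monocyte count was 3 without WT library 1 or WT library 3. Defining macrophage genes were present in every library, the list's sum being 15500 to 28200 CPM. Lyz2, which is also in the granule list, was at 13000 to 15700 CPM in WT, where the macrophage sum was 22100 to 26000 CPM. The part of monocyte or peritoneal cells in the levels of Hp, Saa3 and Slpi was not tested.

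Mesothelial and epithelial cells can also make Saa3 and Slpi. In ABCG1KO against WT, edgeR called 0 of the 12 markers of these cells, with 0 at an unadjusted p under 0.05 and 0 in DESeq2 (median 0.19). Of the 10 fibroblast markers 0 rose, by either tool or at an unadjusted p under 0.05, and 1, Lum, fell in edgeR (median -0.82), while 4 were lower at an unadjusted p under 0.05 and 3 in DESeq2. The mesothelial sum was 51.7, 55.8 and 11.2 CPM in WT, 6.86, 77.1 and 117 CPM in LysM-DKO, and 10.7 and 44.5 CPM in ABCG1KO. Within WT and LysM-DKO the libraries with the lowest Saa3 and Slpi, WT 3 and LysM-DKO 1, also had the lowest mesothelial sums, and whether these cells contribute to that spread was not tested. ABCG1KO library 1 had the highest Hp, Saa3 and Slpi of all libraries with a mesothelial sum below every WT library and a fibroblast sum of 164 CPM, against 778 to 956 CPM in WT and 1220 CPM in ABCG1KO library 2. Of the 11 hepatocyte markers, 2 were tested and only Ttr was called, at 11.4 and 7.12 CPM in ABCG1KO and 0 counts in WT. Ttr was also at 0 in LysM-DKO, so it passed the filter only through ABCG1KO and could be called only as a rise. The sum of the hepatocyte list stayed at 12 CPM or less. Of the 2 adipocyte markers tested, Pparg fell (-1.74, SE 0.35, edgeR adjusted p = 0.0154), and the adipocyte-defining gene Adipoq had at most 1 count.

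**Figure D4:**
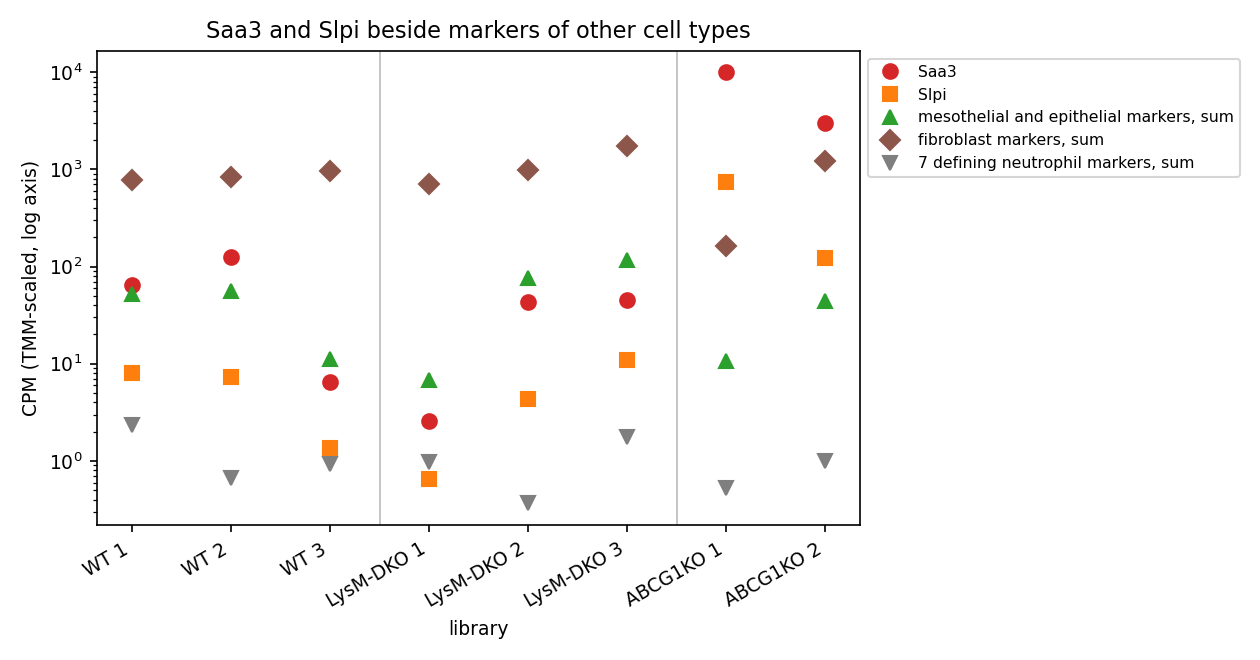
Levels of Saa3 and Slpi beside summed levels of mesothelial, fibroblast and 7 defining neutrophil markers in each library, in TMM-scaled CPM on a log axis. Saa3, Slpi and the mesothelial sum are all low in WT 3 and LysM-DKO 1, and in ABCG1KO library 1, where Saa3 is highest, the mesothelial and fibroblast sums are below those of WT. Sums of the wider neutrophil, the monocyte and the resident peritoneal lists are not drawn. Each was higher in both ABCG1KO libraries than in any WT or LysM-DKO library.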

How the data were processed

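The deposited files hold raw read counts per gene symbol for 8 libraries, in the format of htseq-count, with 5 special lines left out of totals and tests. Per the submitters' processing notes, STAR 2.7.9a, TopHat, HTSeq 0.11.2, DESeq2 1.30.1, limma and build mm10 were named, with no role or order. The annotation and strand setting are not given in the sources used here.

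Counts were tested with edgeR 4.0.16 (R 4.3.3): quasi-likelihood fit with robust dispersion, TMM scaling, filterByExpr by group, all 8 libraries with 1 term per group, and Benjamini-Hochberg adjustment over the 13821 genes kept. CPM used the TMM-scaled totals. The filter's limit was 0.257 CPM. Genes below it in WT and LysM-DKO were tested where the ABCG1KO libraries reached it, and could be called only as rises in ABCG1KO. The biological coefficient of variation was 36.1%, with 5 residual degrees of freedom. Correlations used log2 CPM with a prior count of 2. Coordinates are from GENCODE M21 on GRCm38. The script was tested on simulated data. DESeq2 1.42.0, other scalings and filters, and leaving out each library were alternatives.

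The members and lists were chosen with earlier results of these data known. Named genes were the 6 genes, Epn1, Epn2 and Abcg1, at most 3 called genes per list by adjusted p, the defining neutrophil markers, Saa1, Saa2 and Saa4, and the 3 genes most like each of the 5 genes fitted. Xist, Ddx3y, Lrg1, Pglyrp1, Cd163, Tlr4, Ctss, Scarb1, Cd68, Lyz2, Padi4, Ly6c2, Gm9733, Prtn3, Alox15 and the Adipoq level were added after their values were seen. Replicates of a group differed by more than counting noise (chi-square per degree of freedom 88.1 to 159).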

Additional observations from a re-analysis of the deposited data

Results flagged for a closer look

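Among the special lines of the count files, which enter no test, those for reads outside genes and for reads aligned to several loci held larger shares in the ABCG1KO libraries than in any WT or LysM-DKO library. Reads outside annotated genes were 13.8% in ABCG1KO library 1 and 10.2% in library 2, against 4.26% to 6.07% elsewhere. Reads aligned to several loci were 6.93% and 6.74%, against 2.65% to 3.01%. Ambiguous reads went the other way, at 0.665% and 0.614% against 0.873% to 0.98%. Their part in the levels of Hp, Saa3 and Slpi was not tested.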

How the results depend on the processing

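In LysM-DKO against WT, none of the 5 genes was called in any of 74 alternative fits (lowest adjusted p 0.356), and 66 kept the direction. The log2 fold change of Slpi was 0.10 with library size only. Leaving out 1 library gave -0.01 to 0.86 for Hp, -1.63 to -0.27 for Saa3, -0.99 to 0.61 for Lcn2, -1.16 to 0.42 for Slpi and -1.72 to -0.64 for S100a8. The number of genes called, 5, became 8 with only the 2 groups compared, 301 with DESeq2, 0 with the replicate block, and 0 to 8 without 1 library; the cause was not tested. In ABCG1KO against WT, leaving out 1 library gave 6.54 to 8.85 for Hp, 5.51 to 7.49 for Saa3, -0.20 to 1.31 for Lcn2, 4.46 to 7.05 for Slpi and -0.60 to 0.87 for S100a8. The 2216 genes called became 1456 with the replicate block and 853 to 2090 without 1 library. Library size only moved the median of all genes in LysM-DKO against WT from 0.02 to 0.17. Whether replicate numbers pair the samples was not settled. Deviations of same-numbered WT and LysM-DKO libraries correlated at 0.04, 0.43 and -0.01, and those of differently numbered ones at -0.29 to 0.23. Lcn2 could not be fitted when every library had to reach 10 counts. The ratio of S100a8 to S100a9 was not tested, because S100a9 was at 0 in all WT and LysM-DKO libraries. S100a9, with at most 6 counts, was too shallow to be fitted. The list counts without 1 library were added after seeing the data.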

Other observations

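The acute-phase gene Serpina3n, which fell in ABCG1KO, lay in the opposite direction in the libraries labelled LysM-DKO, at 15.6 to 20.8 CPM against 1.33 to 2.34 CPM in WT. Its log2 fold change was 3.30 (SE 0.50), with an edgeR adjusted p of 0.139 and a call by DESeq2, and it was picked out after its values were seen. Of 150 list genes that are not among the 6, edgeR called 0 in LysM-DKO against WT and 25 had an unadjusted p under 0.05 (16.7%, against 11.7% of all genes), while DESeq2 called 9 of 147, beside 301 of 13777 over all genes. The granule enzyme gene Lyz2, the locus that LysM names, was at a mean of 6850 CPM in LysM-DKO and 14600 CPM in WT (-1.09, SE 0.20, edgeR adjusted p = 0.173), and it was called by DESeq2. The summed level of the neutrophil granule list, to which Lyz2 contributes most, was 10200 to 11800 CPM in LysM-DKO and 18500 to 21100 CPM in WT, and edgeR called 0 of its 14 genes tested (4 at an unadjusted p under 0.05, and 3 called by DESeq2).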
